A study of Mus musculus with 4 samples.

Results

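The genes described here are 10 early response genes that lie outside the AP-1 family: Egr1, Egr2 and Egr3, Nr4a1, Nr4a2 and Nr4a3, Ier2, Ier3 and Ier5, and Klf4. They were taken by symbol from the gene lists of the 4 libraries, and all 10 were found among the 18298 genes with a read in at least 1 library. RNA was sequenced from first-passage (P1) cultures of primary rib chondrocytes, the cartilage-forming cells, of E18.5 embryos on the C57BL/6 background. The 2 mutant (Mut) libraries carried Dermo1-Cre and Senp6f/f, and the 2 control (WT) libraries carried the same floxed alleles, Senp6f/f, without Cre. Dermo1-Cre is expressed from the Twist2 locus in the mesenchymal progenitors of cartilage and bone, so cells of other origins in the cultures would keep Senp6, which encodes a protease that removes SUMO2/3 from proteins. The labels do not say whether a library came from 1 embryo or from several, so the p-values measure the spread between libraries, part of which may be technical.

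Early response genes are transcribed within minutes of a stimulus such as serum, growth factors, cytokines or mechanical load, from transcription factors that are already present in the cell. EGR proteins are zinc finger activators, NR4A proteins are nuclear receptors that act without a known hormone, the IER genes encode small regulators of growth and survival, and Klf4 encodes a zinc finger factor of the Krüppel-like family. Their transcripts are short-lived, so the level in a culture depends on the state of the cells when RNA was taken.

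Most of these genes had higher levels in both mutant cultures, with the NR4A genes, Ier3 and Egr2 furthest above the control and Klf4, Ier2 and Egr3 close to it, but none passed the test at an adjusted p of 0.05. The summed RPKM of the 10 genes (reads on a gene scaled by its length and by all reads counted in the library) was 104 and 107 in WT replicates 1 and 2 and 147 and 186 in Mut replicates 1 and 2. Both mutant libraries lay above both controls for 8 of the 10 genes, against 28.3% of the 14123 genes tested. Both lay below for 1 gene, Klf4, against 19.2% of the genes tested, and Egr3 overlapped. The counts were tested with edgeR (quasi-likelihood, p-values adjusted by Benjamini-Hochberg over all genes), and an adjusted p under 0.05 was reached by 0 of the 10 genes and by 0% of all genes, the smallest of any gene being 0.0512. By the same test, 2 of the 10, Nr4a1 and Ier3, were higher with an adjusted p under 0.1, as were 1.52% of all genes tested. At an unadjusted p under 0.05 there were 7 of the 10 higher, against 9.29% of all genes, and 0 lower, against 6.28%. Without Mut replicate 2, the number higher at this unadjusted p was 2, against 4.54% of all genes. The median log2 fold change of the 10 genes (mutant minus control, here and throughout) was 0.66, and that of all genes tested was 0.01. DESeq2 in place of edgeR called 3 of the 10, Nr4a1, Nr4a2 and Ier3, all higher, against 3.07% of all genes. Without a filter on low counts edgeR called 2, Nr4a1 and Ier3, against 1.23%.

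**Figure D1:**
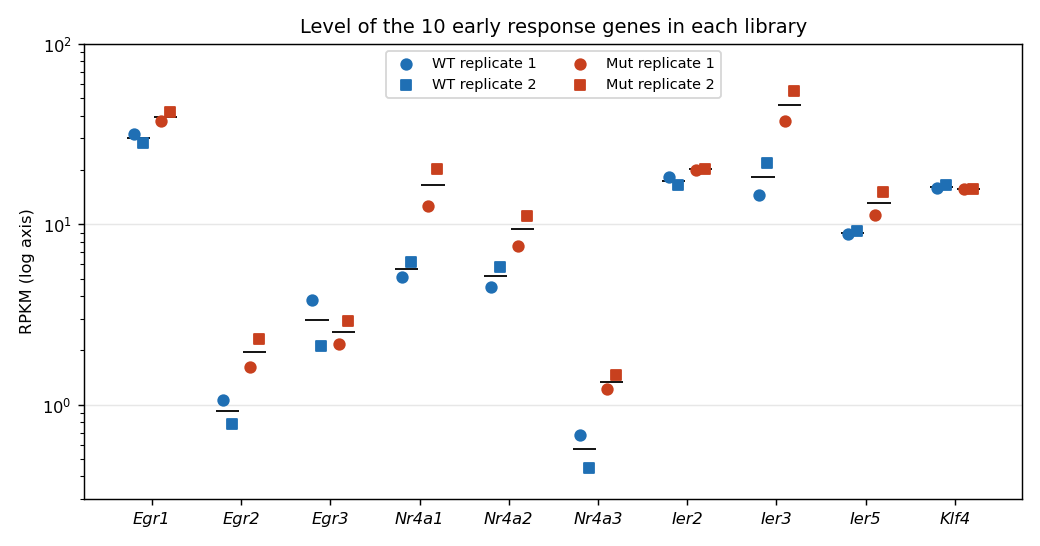
RPKM of each gene (log axis) in WT replicates 1 and 2 (blue) and Mut replicates 1 and 2 (red), with a black line at the mean of each group (n = 2). Both mutant values lie above both control values for 8 genes, Klf4 lies between 15.6 and 16.5 in every library, and the groups overlap for Egr3.

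The libraries held between 21.02 M and 30.99 M counted reads (M, 1000000 reads), and the 10 genes between 22 and 3619 reads each per library, with the fewest on Nr4a3, Egr2 and Egr3 (22 to 195). Senp6 itself had 1125 and 2326 reads in WT replicates 1 and 2 and 1839 and 1126 in Mut replicates 1 and 2, with overlapping groups. A gene-level count includes the exons that Cre leaves in place, so it does not check the deletion. Mut replicate 2 had 11354 reads on Xist and 7 reads on 4 Y-linked genes, whereas the other 3 libraries had 2 to 5 and 2088 to 3584 reads, so the mutant pair differed in sex pattern. Embryos were not separated by sex in the study. The chondrocyte markers were present in every library, and 10 of 10 were lower in both mutants than in both controls (9 at an unadjusted p under 0.05), with a summed RPKM of 963 to 975 in the controls and 503 to 626 in the mutants. Skeletal muscle markers summed to 27.5 and 76.5 in the controls, which differed widely, and to 138 and 156 in the mutants. Of the 9 muscle markers tested, 8 were higher in both mutants, and 6 were higher at an unadjusted p under 0.05. Their log2 fold changes ran from -1.49 to 2.51, the highest being that of Myod1, whose RPKM lay between 0.537 and 9.30. Macrophage markers summed to 15.91 to 18.05 in the controls and 7.36 to 10.8 in the mutants. Perichondrial and fibroblast markers summed to 8520.3 to 12205 in the controls and 6314 to 8546 in the mutants, and osteoblast markers to 496 to 551 and 510.3 to 653. The 7 perichondrial and fibroblast markers went both ways, with 4 lower in both mutants and 2 higher. At an unadjusted p under 0.05, 2 of these were lower and 1 was higher, and their median log2 fold change was -0.61. Of the 5 osteoblast markers tested, 4 were lower in both mutants, 3 of them at an unadjusted p under 0.05, and the median log2 fold change was -1.11. Endothelial markers summed to 0.901 to 1.57 in the controls and 0.947 to 1.06 in the mutants. The chondrocyte, muscle and macrophage sums differed between the genotypes without overlap, and their part in the differences described here was not tested. In bulk cultures fewer cells of a type cannot be told apart from less RNA per cell.

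The NR4A receptors bind DNA as monomers or dimers, and Nr4a1 (Nur77), Nr4a2 (Nurr1) and Nr4a3 (NOR-1) are known as genes that cAMP and the CREB factor switch on. Nr4a1 (Entrez Gene 15370) had an RPKM of 5.09 and 6.14 in the control replicates and of 12.6 and 20.4 in the mutant replicates. Every mutant value was above both controls, and the 2 mutants were further from each other than the 2 controls. The log2 fold change was 1.51 ± 0.24 (SE, edgeR adjusted p = 0.0833), a 2.84-fold higher level and the largest of the 10 genes, at rank 84 of the 14123 genes by p. Its DESeq2 adjusted p was 4.72e-06, and over all alternatives (other tools, filters and left-out libraries) the adjusted p ran up to 0.232. Leaving out 1 library at a time kept the log2 fold change between 1.14 and 1.80.

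Nr4a2 (Entrez Gene 18227) stood at an RPKM of 4.50 and 5.79 in the controls and 7.57 and 11.2 in the mutants. The groups did not overlap, but Mut replicate 1 was closer to WT replicate 2 than to Mut replicate 2. Its log2 fold change was 0.82 ± 0.22 (SE, edgeR adjusted p = 0.156), and the DESeq2 adjusted p was 0.0388, within a range of 0.0264 to 0.801 over the alternatives. Without Mut replicate 2 it was 0.54.

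Nr4a3 (Entrez Gene 18124) was the least abundant of the 10 genes, with 27 and 22 reads in the controls and 71 and 78 in the mutants. These correspond to an RPKM of 0.682 and 0.447 against 1.22 and 1.47, without overlap. The log2 fold change was 1.21 ± 0.37 (SE, edgeR adjusted p = 0.197, DESeq2 adjusted p = 0.304, range over the alternatives 0.0706 to 0.770). The mutant replicates were close to each other, and the wider gap was between the controls, at -0.62 on the log2 scale (WT replicate 2 minus replicate 1). With limma on log2(RPKM + 1), whose pseudocount is of the size of the level itself, the difference was 0.58.

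Among 300-base windows from 250 bases before to 50 after the transcription start (RefSeq, GRCm38.p6), 7 of the 10 genes had an entry, and Egr1, Egr3 and Ier2 had none. The pentamer TGACG, the core of the sites that CREB and ATF factors recognise, was counted on both strands. It occurred 4 times in the window of each NR4A gene, whereas 20.8% of all 32851 windows held it at least 1 time and 0.231% at least 4 times. The full palindrome TGACGTCA, which contains the pentamer on each strand, was in none of the 3 NR4A windows and in 1.79% of all windows. The 250 bases before the start of the 3 genes are shown, with the pentamer on either strand in capitals. They were chosen because every NR4A gene was higher in both mutants than in both controls, with fitted fold changes of 1.77 to 2.84. Every IER gene was also higher in both mutants, with fitted fold changes of 1.13 (Ier2), 1.42 (Ier5) and 2.46 (Ier3). A match is a run of letters and not a measured site.
Nr4a1, chr15:101266596-101266845, forward strand: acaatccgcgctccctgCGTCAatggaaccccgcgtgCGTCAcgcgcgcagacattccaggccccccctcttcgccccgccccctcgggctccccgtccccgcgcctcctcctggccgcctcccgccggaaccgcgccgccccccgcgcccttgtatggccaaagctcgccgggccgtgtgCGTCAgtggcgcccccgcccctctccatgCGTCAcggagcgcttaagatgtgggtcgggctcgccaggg
Nr4a2, chr2:57124004-57124253, reverse strand: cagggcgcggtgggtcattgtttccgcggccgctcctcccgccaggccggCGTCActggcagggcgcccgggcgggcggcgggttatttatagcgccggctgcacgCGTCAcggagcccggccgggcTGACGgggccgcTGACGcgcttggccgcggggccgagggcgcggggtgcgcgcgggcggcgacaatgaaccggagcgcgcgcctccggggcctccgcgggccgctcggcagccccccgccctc
Nr4a3, chr4:48045055-48045304, forward strand: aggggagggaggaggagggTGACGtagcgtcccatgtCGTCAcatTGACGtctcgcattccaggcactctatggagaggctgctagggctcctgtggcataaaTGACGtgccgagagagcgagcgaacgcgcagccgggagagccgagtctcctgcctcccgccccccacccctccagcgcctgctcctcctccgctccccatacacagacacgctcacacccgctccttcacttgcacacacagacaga

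Of the IER genes, Ier3 (IEX-1), which is known as a target of NF-κB and as a regulator of cell survival, differed most. Ier3 (Entrez Gene 15937) had an RPKM of 14.5 and 21.9 in the controls and of 37.3 and 54.9 in the mutants. The lowest mutant was well above the highest control, and the replicates differed by 0.53 within the control pair and 0.52 within the mutant pair on the log2 scale. The log2 fold change was 1.30 ± 0.25 (SE, edgeR adjusted p = 0.0943), a 2.46-fold higher level, with a DESeq2 adjusted p of 0.000121 and up to 0.129 over the alternatives. It stayed between 1.01 and 1.56 when each library was left out in turn. In the mutant Ier3 was the most abundant of the 10 genes by mean RPKM, at 46.1 ± 12.4 (SD, n = 2), with a range that overlapped that of Egr1. In the control it was second to Egr1, at 18.2 ± 5.21 (SD, n = 2).

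The promoter window of Ier3 held no TGACG pentamer on either strand, and it held 1 match to the NF-κB motif, starting at base 159 of the window and present in 4.51% of all windows. Nr4a1 also held 1 such match, starting at base 248. The 250 bases before the start of Ier3, the IER gene that differed most, are also given and carry no capitals. Whether any motif is related to the fold changes was not tested.
Ier3, chr17:35821463-35821712, forward strand: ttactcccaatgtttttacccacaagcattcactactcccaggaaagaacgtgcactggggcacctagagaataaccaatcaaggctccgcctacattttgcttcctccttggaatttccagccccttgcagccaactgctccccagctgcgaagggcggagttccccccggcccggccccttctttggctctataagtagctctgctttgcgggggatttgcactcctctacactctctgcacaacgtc

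Ier5 (Entrez Gene 15939), whose protein works with heat shock factor 1, had an RPKM of 8.83 and 9.13 in the controls and 11.3 and 15.1 in the mutants. The controls were nearly equal, both mutants were above them, and the mutants differed by 0.38 on the log2 scale. Its log2 fold change was 0.51 ± 0.17 (SE, edgeR adjusted p = 0.221), and 0.30 without Mut replicate 2. Ier2 (Entrez Gene 15936), a nuclear protein of the same family, had an RPKM of 18.3 and 16.6 against 20.1 and 20.4. The groups did not overlap, but the log2 fold change of 0.17 ± 0.14 (SE, edgeR adjusted p = 0.633) was smaller than the gap between the control replicates (-0.20, replicate 2 minus replicate 1). Without WT replicate 2 it was 0.05.

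The EGR genes differed among themselves, with Egr2 furthest from the control and Egr3 in overlap with it. Egr1 (Entrez Gene 13653), a zinc finger factor induced by serum through the ERK pathway, was the most abundant gene of the 10 in the controls, with an RPKM of 31.9 and 28.1, and it reached 37.3 and 41.7 in the mutants. Its log2 fold change was 0.35 ± 0.14 (SE, edgeR adjusted p = 0.293), and it was 0.21 without WT replicate 2 and 0.47 without WT replicate 1. Egr2 (Entrez Gene 13654), known for its role in hindbrain and Schwann cells, was at an RPKM of 1.06 and 0.785 in the controls, from 66 and 61 reads, and at 1.61 and 2.32 in the mutants, from 148 and 195 reads. Both mutants were above both controls, with a log2 fold change of 1.05 ± 0.31 (SE, edgeR adjusted p = 0.184, DESeq2 adjusted p = 0.148). Without WT replicate 1 the edgeR adjusted p was 0.0346, in a fit with a single control library that was assumed to vary like the mutants, and over all alternatives it ran up to 0.8815.

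Egr3 (Entrez Gene 13655), which is known in muscle spindles and lymphocytes, had an RPKM of 3.80 and 2.11 in the controls and of 2.16 and 2.90 in the mutants. WT replicate 1 was the highest library and WT replicate 2 the lowest, so both mutants lay between the controls. The log2 fold change was -0.27 ± 0.36 (SE, edgeR adjusted p = 0.785), and it became 0.24 without WT replicate 1. The difference between the control replicates was -0.89 on the log2 scale (replicate 2 minus replicate 1), the widest gap within a pair among the 10 genes. The difference between Egr2 and Egr3 in response was not tested. Of the 5 windows listed for Egr2, 4 held 1 match to the CArG box, the site of serum response factor, which was in 1.63% of all windows. Of these windows 3 overlap and share 1 match, and the other window lies upstream of them. The same 3 windows held 2 TGACG pentamers each, and the window of Ier5 held 0.

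Klf4 (Entrez Gene 16600), a factor of the Krüppel-like family with roles in differentiation and in the arrest of growth, was level across the libraries. Its RPKM was 15.8 and 16.5 in the controls and 15.7 and 15.6 in the mutants, from 1018 to 1483 reads. Both mutants were below both controls, by an amount that did not exceed the standard error, with a log2 fold change of -0.09 ± 0.13 (SE, edgeR adjusted p = 0.784). The replicates were nearly equal, with a difference of 0.004 between the control replicates and -0.04 between the mutant replicates on the log2 scale (replicate 2 minus replicate 1). The Klf4 window held 1 TGACG pentamer and 1 match to the EGR site (GCGGGGGCG or GCGTGGGCG, 3.47% of all windows), which was also found 1 time in the Nr4a1 window.

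**Figure D2:**
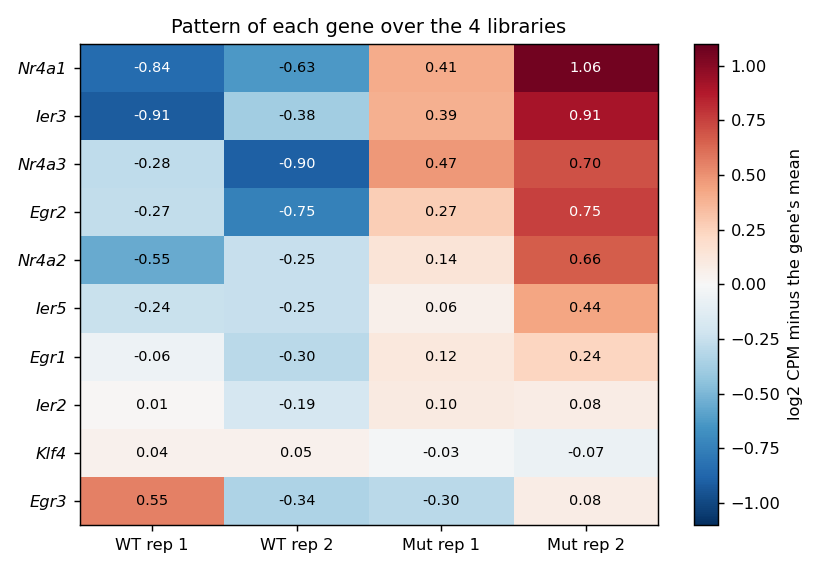
Each gene's log2 CPM (counts per TMM-scaled library size) minus its mean over the 4 libraries, with genes in rows by log2 fold change and libraries in columns. Nr4a1 runs from -0.84 in WT replicate 1 to 1.06 in Mut replicate 2 and Ier3 from -0.91 to 0.91, Klf4 stays within 0.07 of its mean, and Egr3 is highest in WT replicate 1.

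The nearest pattern over the 4 libraries was often that of a gene of another family. By the Euclidean distance between centred log2 CPM values, Nr4a1 was nearest to Ier3 (0.30), Nr4a3 to Egr2 (0.26), and Egr1 to Ier2 (0.21). Nr4a3 and Egr2 were lowest in WT replicate 2, whereas Nr4a1, Nr4a2 and Ier3 were lowest in WT replicate 1. In the mutant pair, 9 of the 10 genes had a higher RPKM in replicate 2 than in replicate 1, the exception being Klf4. In the control pair, 5 of the 10 were higher in replicate 2. Under TMM scaling, Ier2 in the mutant pair (-0.02 on the log2 scale) and Ier5 in the control pair (-0.01) lay just on the other side. Mut replicate 2 is also the library with the female pattern. The order of the levels by RPKM differed between the genotypes. In the controls it ran from Egr1 through Ier3, Ier2, Klf4, Ier5, Nr4a1, Nr4a2, Egr3 and Egr2 to Nr4a3, with ranges that overlapped between Ier3 and Ier2 and between Nr4a1 and Nr4a2 among neighbours. In the mutants Ier3 came before Egr1, and Nr4a1, at 16.5 ± 5.51 (SD, n = 2), came before Klf4, with overlapping ranges in both cases. Nr4a1 and Ier2 overlapped there as well, as did Egr3 and Egr2.

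**Figure D3:**
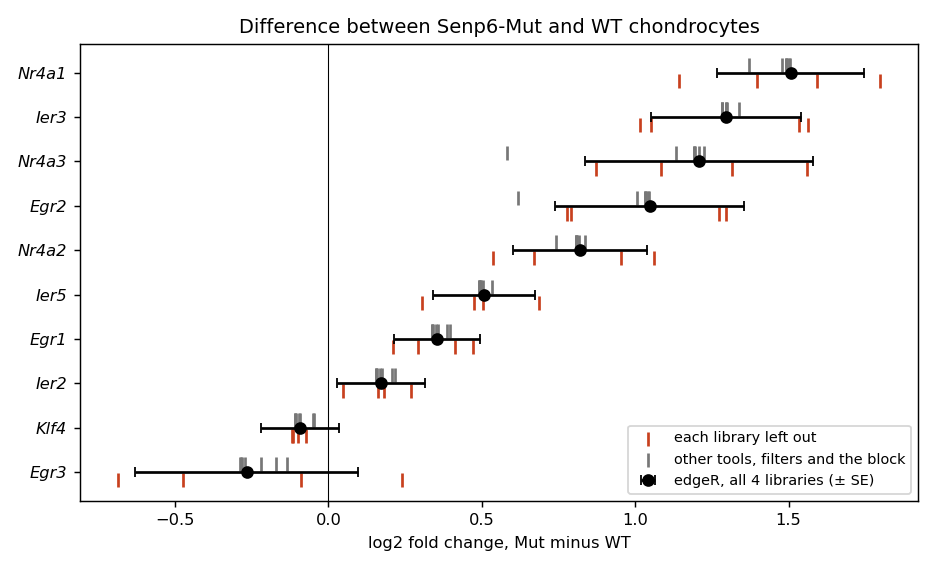
Log2 fold change (mutant minus control) of each gene in the edgeR fit of all 4 libraries (black points, bars are ± 1 standard error), with the values after leaving out each library (red ticks) and under the other tools, filters and the replicate block (grey ticks). The direction was the same in every fit for 9 genes, and Egr3 crossed 0 without WT replicate 1.

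The share of each gene's bases with at least 1 read, also given by the authors, was at least 97.2% for Egr1, Ier2 and Ier3 in every library. It was higher in both mutants for Nr4a1, at 85.6% and 88.8% in the controls against 96.7% and 94.2%, and for Ier5, at 79.8% and 83.7% against 95.2% and 94.5%. For Nr4a3 it was 76.0% and 65.1% against 89.1% and 95.9%, and for Klf4, whose log2 fold change was -0.09, 84.9% and 86.2% against 87.9% and 88.2%. For Nr4a2 the groups overlapped, at 87.1% and 91.2% against 90.3% and 91.6%, as they did for Egr3, at 97.5% and 91.2% against 96.3% and 97.5%. The groups overlapped for Egr2 too, at 79.0% and 78.1% in the controls and 71.7% and 79.7% in the mutants, although its mutant libraries held 148 and 195 reads and the controls 66 and 61. No test was made on these percentages.

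Related genes were listed by their role. Of 35 other early response genes, 34 were tested and none had an edgeR adjusted p under 0.05. At an unadjusted p under 0.05, 5 were higher and 1 was lower, against 9.29% and 6.28% of all genes. DESeq2 called 2 (Maff and Btg2), both higher, against 3.07% of all genes. Their median log2 fold change was 0.25, below that of the 10 genes. Both mutants lay above both controls for 19 of the 34 and below for 1, against 28.3% and 19.2% of all genes. Maff, which encodes a small MAF factor, had an RPKM of 2.33 and 2.64 in the controls and 5.14 and 7.87 in the mutants (log2 fold change 1.34 ± 0.26, SE, edgeR adjusted p = 0.0961). Btg2, an inhibitor of proliferation and a p53 target, was at 7.78 and 9.32 against 13.5 and 20.5 (log2 fold change 0.95 ± 0.21, SE, edgeR adjusted p = 0.116). Both were, like Nr4a1, lowest in WT replicate 1 and highest in Mut replicate 2. The kinases Sik1 and Pim1 had log2 fold changes of 0.43 and 0.60 (edgeR adjusted p = 0.231 and 0.233). Of 8 AP-1 genes, 8 were tested, with a median of 0.23, and 8 had a positive log2 fold change. Both mutants lay above both controls for 6 of the 8 and below for 0, against the same shares of all genes. Fos alone had an unadjusted p under 0.05, with a log2 fold change of 0.95 (edgeR adjusted p = 0.122). It was the 1 gene of this list called by DESeq2, which called 3.07% of all genes higher.

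The genes that act upstream of or beside the 10 were nearer to 0. The median was -0.01 over 23 tested inducers, which include Srf, the ELK factors, Creb1 and the kinases of the ERK and p38 pathways. Mapk7 (ERK5) alone had an unadjusted p under 0.05, at a log2 fold change of -0.42 ± 0.17 (SE, edgeR adjusted p = 0.291). The median was -0.03 over 10 partners and corepressors, such as the EGR corepressors Nab1 and Nab2 and the NR4A partner Rxra, and 0 of them had an unadjusted p under 0.05. The outermost log2 fold changes of these partners were 0.21 for Rcor1 and -0.37 for Rxra. DESeq2 called 0 inducers and 0 partners. Both mutants lay above both controls for 10 of the 23 inducers and below for 3, against 28.3% and 19.2% of all genes. For the 10 partners these counts were 1 and 1. Among the other 16 KLF genes, of which Klf2, Klf6 and Klf10 are also in the early response list, 14 were tested with a median of 0.03, 1 being higher and 2 lower at an unadjusted p under 0.05. Klf5 was higher in both mutants, at 12.4 and 13.5 against 7.02 and 7.82 (log2 fold change 0.76, edgeR adjusted p = 0.101). Klf14 and Klf15 were lower, with log2 fold changes of -1.85 and -1.19 (edgeR adjusted p = 0.194 and 0.221). DESeq2 called 2 of the KLF genes, Klf5 (higher) and Klf14 (lower), against 3.07% of all genes higher and 1.86% lower. Both mutants lay above both controls for 5 of the 14 tested KLF genes and below for 3. Transcript levels do not show the activity of the kinases and factors in these lists.

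**Figure D4:**
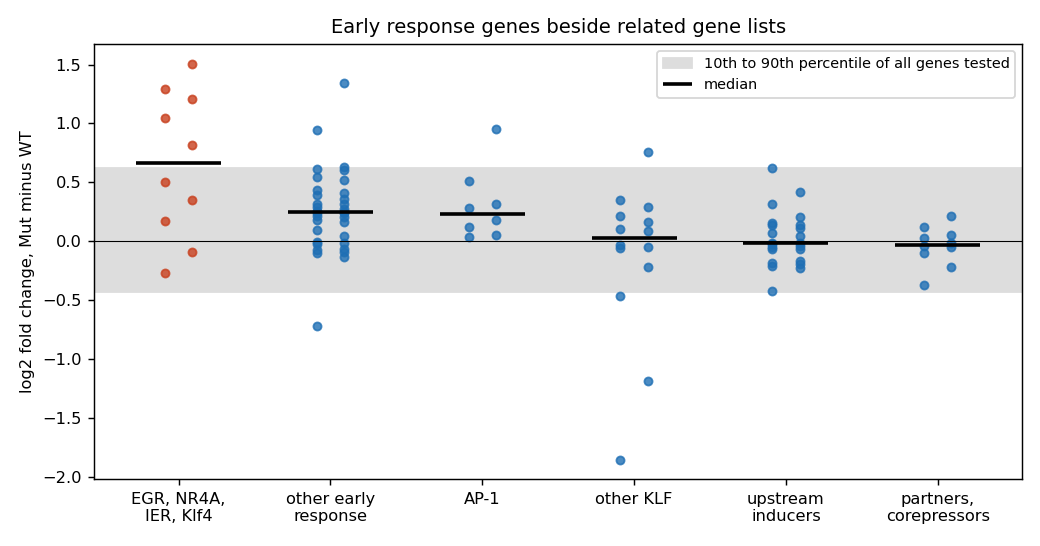
Log2 fold change (mutant minus control) of each tested gene in the 10 early response genes (red) and in 5 related lists (blue), with a black line at each median and a grey band from the 10th to the 90th percentile of all genes tested (-0.43 to 0.62). The band describes single genes and is no test of a median. The median of the 10 genes lies at 0.66, those of the other early response and AP-1 genes at 0.25 and 0.23, and those of the other lists near 0.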

How the data were processed

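RNA of 2 mutant and 2 control rib chondrocyte cultures was sequenced by a service. Per the file headers, the authors deposited for each gene the read count, without normalization, the RPKM, obtained from the count by the length given for the gene and the library's total, and the percent of bases covered. Processing notes of the submitters name mm9 and SAMtools. The aligner, counting tool and annotation are not given in the sources used here, nor is the use of strand. In GENCODE M21 (GRCm38) no exon of another gene overlaps those of the 10 genes. Genes absent from a library's list were given a count of 0.

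For the counts, edgeR 4.0.16 (R 4.3.3, TMM factors 0.966 to 1.03, robust quasi-likelihood fit, two-sided) was run over the 14123 genes that reached 10 counts in 2 or more libraries. All 10 genes had at least 10 counts in every library. P-values were adjusted by Benjamini-Hochberg over all genes tested. The standard error is the fold change divided by the square root of F. An exact permutation test of 1 gene cannot go below 0.333 with 2 libraries per group. Alternatives were DESeq2 1.42.0, its size factors in edgeR, 2 other filters, limma 3.58.1 on log2(RPKM + 1) and log2(RPKM + 0.1), a replicate block, and fits without each library. The edgeR, block, DESeq2 and limma fits were also run on simulated counts with planted changes larger than those of the 10 genes. That run checks the code and does not measure the error rates of the fits in these data. The chi-square of replicate counts over its degrees of freedom was 48.6 (controls) and 23.7 (mutants), so replicates differed by more than counting noise. Each library was kept separate. The value does not show how many embryos a library came from.

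The 10 genes, the related lists, the marker lists and the tests were chosen with earlier results of these data known. Named were all 10 genes and, of each related list, up to 4 genes at an unadjusted p under 0.05 or otherwise its outermost genes. Of the marker lists, sums are given, with Myod1 as the gene that defines muscle cells. A further marker list is not reported here. Promoter windows to print were chosen after the values were seen. Promoter sequences are those of RefSeq for GRCm38.p6, matched by gene identifier.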

Additional observations from a re-analysis of the deposited data

How the results depend on the processing

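Of 110 values of the 10 log2 fold changes under 11 alternatives, all but 1 kept their direction. Egr3 reversed, to 0.24 without WT replicate 1, with -0.69 as its lowest value, without WT replicate 2. The number of genes called over all genes was 434 higher and 263 lower with DESeq2, 225 and 61 without a filter on low counts, and 84 and 33 with the replicate block. It ranged from 96 to 1331 higher and from 47 to 1492 lower with 1 library left out. Of the 10 genes, 3 were called with DESeq2, all higher, against 3.07% of all genes higher and 1.86% lower. Without a filter 2 were called, both higher, against 1.23% and 0.333%. With the block 2 were called, both higher, against 0.595% and 0.234%. Of the other early response genes, 2 were called with DESeq2, 2 without a filter and 0 to 6 with 1 library left out. For DESeq2 and the fit without a filter, the shares of all genes are those just given. The 6 came from the fit without WT replicate 2, which called 9.42% of all genes higher and 10.6% lower, the most of any fit. The 6 therefore do not set this list apart from all genes. The number of the 10 higher at an unadjusted p under 0.05 ranged from 2 (without Mut replicate 2) to 7. With 1 library left out, their median log2 fold change ranged from 0.42 (without Mut replicate 2) to 0.87, and that of the other early response genes from 0.15 to 0.29, with 0.30 under limma on log2(RPKM + 0.1). By TMM-scaled counts, as by RPKM, 8 of the 10 genes were higher in both mutants than in both controls and 1 was lower. With 1 library left out, these numbers ranged from 8 to 9 and from 1 to 2. Groups that do not overlap cannot come to overlap when a library is removed, so these numbers could only stay or rise. They are no check on the result, and no share of all genes is given for comparison. The causes of the differences between settings were not tested. Where 1 library of a group is left, it is assumed to vary like the other group.

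The replicate differences of the 2 genotypes had a correlation of -0.0422 across genes, so libraries with the same replicate number showed no shared difference. This value alone cannot exclude that libraries with the same number were paired. In the fit with this replicate block, the edgeR adjusted p was 0.0396 for both Nr4a1 and Ier3, with log2 fold changes of 1.48 and 1.30. Over all alternatives their adjusted p ran from 4.72e-06 to 0.232 and from 0.000121 to 0.129. Depth limits Nr4a3, Egr2 and Egr3 most, with 22 to 195 reads per library.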

Other observations

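Over the 11622 other tested genes with a mean RPKM of at least 1, the 5 whose centred log2 CPM lay nearest to the mean pattern of the 10 early response genes over the 4 libraries were Sema6b, Mfge8, Rtkn2, Ece1 and Ptp4a3. Their Euclidean distances were 0.051, 0.063, 0.067, 0.069 and 0.074. The mean pattern of the 10 genes was -0.26 and -0.39 in WT replicates 1 and 2 and 0.16 and 0.49 in Mut replicates 1 and 2. With 4 libraries many genes come this near, so the distances only describe the pattern.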
